A study of Homo sapiens with 6 samples.

Results

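The regions described are chromosomes 9 and 22 of K562, a line of human chronic myeloid leukaemia cells, as seen in 4C-seq libraries whose viewpoint lies at FGF18 on chromosome 5. The members are all HindIII fragments on chr9 or chr22 that received at least 1 read in any of 6 libraries. There were 8242 such fragments, 6354 on chr9 and 1888 on chr22, of 186490 outside chr5 and 206896 in all. They were counted in windows of 1 Mb (hg19), and each count is given as a share of all fragments listed outside chr5 in the same library, per 10000. In 4C-seq, crosslinked chromatin is cut, here with HindIII and then DpnII, and religated, and fragments joined to the viewpoint are amplified and sequenced. There were 3 groups with 2 libraries each: EV cells, which carried an empty vector and are labelled untreated, S1KO cells, in which the region called silencer1 was knocked out, and DKO cells, in which the silencer1 and silencer2 regions were both knocked out. The treatment text names CRISPR excision for all 3 groups, EV included. The series text calls the replicates biological. Whether a group was 1 clone or a pool of cells, and whether replicates were separate cultures, was not stated in the labels, so p-values measure the spread between these libraries.

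In chronic myeloid leukaemia, an exchange between the long arms of chromosomes 9 and 22 joins the 5′ part of BCR, a signalling protein with kinase and GTPase-activating domains, to the 3′ part of ABL1, a tyrosine kinase. The fusion chromosome keeps chr22 on the centromeric side of the BCR break and chr9 on the telomeric side of the ABL1 break, and its product is a constitutively active kinase. K562 is known to carry the fusion in extra copies and to lack the short-arm region of chr9 that holds CDKN2A, which encodes the cell-cycle inhibitor p16 and the p53 stabiliser ARF. A viewpoint on another chromosome meets these regions mostly through contacts between chromosomes, which are rare and give each library a different sample of fragments. In such counts the number of copies of a region and how often each copy touches the viewpoint cannot be told apart. The density of HindIII sites and the mappability of the reads also set how many fragments a window can yield, and neither was corrected for.

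The libraries held 708503 to 1919737 reads and listed 29847 to 42351 fragments outside chr5, the fewest in the DKO libraries (34179 and 29847). Chromosome 5 took 22.2% and 11.6% of reads in EV, 22.4% and 19.8% in S1KO, and 27.6% and 38.1% in DKO. A listed fragment outside chr5 held a median of 10 to 34 reads. Of 142 windows on chr9 and 52 on chr22, 23 and 16 had no fragment in any library. The 100 and 35 windows with at least 20 fragments over the 6 libraries had medians of 3.14 per 10000 on chr9 and 2.36 on chr22, against 3.64 on the other chromosomes outside chr5. Of all windows, 39 on chr9 and 7 on chr22 lay above the median of 3.61 over all tested windows outside chr5.

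On chr22 the fragments were concentrated between the start of the long arm and BCR. The window that holds the BCR position, chr22:23000001-24000000, listed 54 and 49 fragments in EV, 58 and 45 in S1KO, and 60 and 50 in DKO. Its mean share of 14.3 ± 2.33 per 10000 (SD, n = 6) was the highest of all 2868 windows outside chr5. As shares, these were 13.5 and 11.6 per 10000 in EV, 13.9 and 12.7 in S1KO, and 17.6 and 16.8 in DKO, so that both DKO libraries lay above the other 4. No comparison of this window passed the test given further on, and 17.7% and 18.1% of all tested windows were likewise higher in both DKO libraries than in both EV or both S1KO libraries. The window below it, chr22:22000001-23000000, listed 40 and 50, 58 and 41, and 45 and 29 fragments in the same order and ranked 3 with 11.7 per 10000. The window above it, chr22:24000001-25000000, listed 3 and 11, 17 and 11, and 4 and 4 fragments, a mean of 2.18 per 10000 with rank 2394. In each library the BCR window listed more fragments than the window above it. That window held 0.751 and 2.6 per 10000 in EV, 4.09 and 3.11 in S1KO and 1.17 and 1.34 in DKO, so that only S1KO replicate 1 exceeded the median window.

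The other windows of chr22 with many fragments lay on the same side. The window chr22:19000001-20000000 listed 36 and 43 fragments in EV, 41 and 31 in S1KO and 29 and 25 in DKO, 9.11 per 10000 with rank 7. The windows chr22:21000001-22000000 and chr22:20000001-21000000 followed with 6.59 and 6.44 per 10000. Density did not climb evenly towards BCR, since chr22:18000001-19000000 held 2.98 per 10000, between 4.72 in the window below it and 9.11 above. The sparsest windows with any fragment were chr22:51000001-52000000 at the end of the chromosome with 0.376 per 10000, then those starting at 49000001, 46000001, 25000001 and 16000001, with 1.31, 1.36, 1.45 and 1.59. The last of these is the first window of the long arm with any listed fragment.

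**Figure D1:**
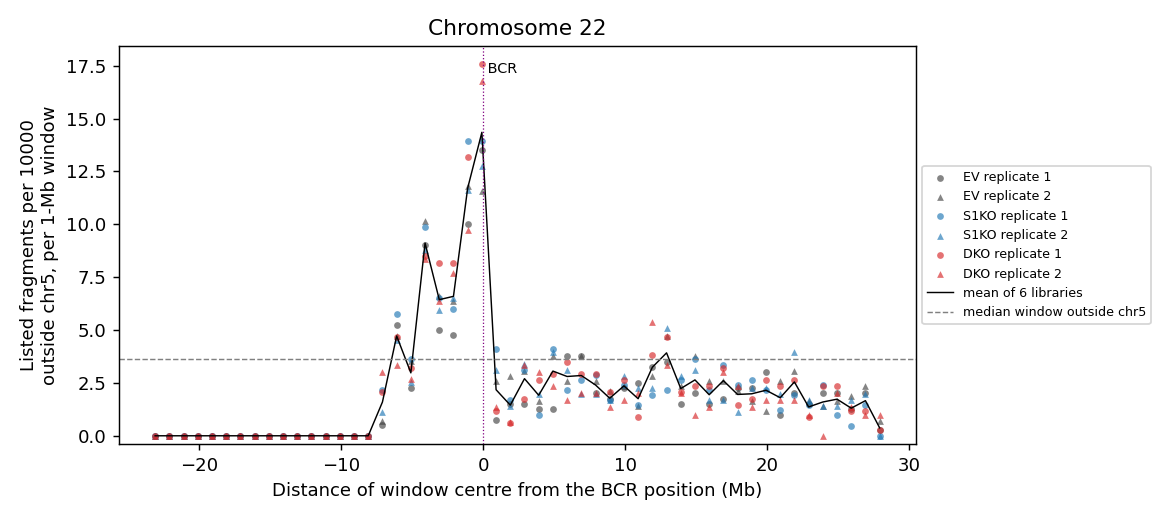
Listed fragments per 10000 listed outside chr5 in each 1-Mb window of chr22 (y axis) against the distance of the window centre from the BCR position in Mb (x axis). Points are the 6 libraries, the black line their mean and the dashed line the median tested window outside chr5 (3.61). The windows just below BCR reach 11.7 and 14.3 and the window above falls to 2.18.

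The step was measured at the BCR position itself, 23.6 Mb. The 1 Mb below it (chr22:22600001-23600000) listed 62 and 66 fragments in EV, 74 and 51 in S1KO, and 69 and 56 in DKO. The 1 Mb above it (chr22:23600001-24600000) listed 5 and 9, 18 and 7, and 9 and 6. The side below was higher in 6 of 6 libraries, by 2.93 ± 0.53 on the log2 scale (SD, n = 6), 7.61-fold (exact two-sided sign-flip permutation test, p = 0.03125, the smallest p that 6 libraries allow, and 0.03125 after adjusting over 4 such tests). S1KO replicate 1 had the smallest ratio, 4.11, and EV replicate 1 the largest, 12.4. In bins of 100 kb, the last bin below the position held 40 fragments over the 6 libraries, and the next 4 bins above held 13, 6, 8 and 4. The change was thus placed within the bins on either side of the position, which is given only to 100 kb.

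The long arm below BCR, from 16 Mb to 23.6 Mb, is called the BCR block here. It listed 196 and 230 fragments in EV, 251 and 186 in S1KO and 217 and 169 in DKO, a density of 7.38 ± 0.69 per 10000 per Mb (SD, n = 6). The rest of the arm, chr22:23600001-51174378, listed 226 and 293, 256 and 231, and 217 and 161 fragments over a length of 27.6 Mb, or 2.24 ± 0.20 per 10000 per Mb. The block's density was 2.85 to 3.81 times that of the rest, higher in 6 of 6 libraries (exact two-sided sign-flip permutation test, p = 0.03125, adjusted 0.0781 over 5 tests added after the data were seen). Since this comparison was chosen from the same counts, its p is a description and no independent support. Relative to the median window outside chr5, the block held 2.04 times and the rest 0.62 times as many fragments per Mb.

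On chr9 the densest window held ABL1. This window, chr9:133000001-134000000, listed 36 and 35 fragments in EV, 37 and 35 in S1KO, and 31 and 33 in DKO. Its mean of 9.37 ± 0.98 per 10000 (SD, n = 6) ranked 4 of 2868. The window above, chr9:134000001-135000000, listed 30 and 24, 28 and 21, and 31 and 28 fragments (7.39 per 10000, rank 27), and the window below, chr9:132000001-133000000, listed 15 and 12, 19 and 16, and 16 and 15 (4.23 per 10000, rank 835). The library counts of the window below were lower than those of the ABL1 window in every library.

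At the ABL1 position, 133.6 Mb, the step ran the other way from that at BCR. The 1 Mb above the position listed 52 and 46 fragments in EV, 54 and 42 in S1KO and 51 and 58 in DKO. The 1 Mb below it listed 12 and 14, 22 and 17, and 14 and 8. The side above was higher in 6 of 6 libraries, by 1.86 ± 0.58 on the log2 scale (SD, n = 6), 3.63-fold (exact two-sided sign-flip permutation test, p = 0.03125, the smallest possible, and 0.03125 after adjusting over 4 tests). With 3 Mb on each side the mean was 0.87 on the log2 scale, since the dense stretch was short. The high side is thus the centromeric side at BCR and the telomeric side at ABL1, the sides that the fusion joins.

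Bins of 100 kb showed that the dense stretch at ABL1 was about 600 kb long. The bin just below the position held 8 fragments over the 6 libraries, the next 6 bins held 42, 37, 47, 42, 72 and 28, and the bin after them held 7. The end of this stretch, 134.2 Mb, was chosen after these values were seen, so its density is a description. The stretch chr9:133600001-134200000, called the ABL1 block here, listed 47 and 37 fragments in EV, 50 and 37 in S1KO, and 47 and 50 in DKO, a density of 20.4 ± 4.61 per 10000 per Mb (SD, n = 6). The 600 kb on each side held 39 and 42 fragments over all 6 libraries, against 268 in the block. The block held 5.65 times the fragments per Mb of the median window outside chr5, and the BCR block 2.04 times. At the same width of 1 Mb, the factor was 4.72 in the 1 Mb below BCR and 3.84 in the 1 Mb above ABL1. The 5.65 of the ABL1 block is over 600 kb, so it is not on the same width. How alike the 2 sides are in density next to their breaks was not tested.

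**Figure D2:**
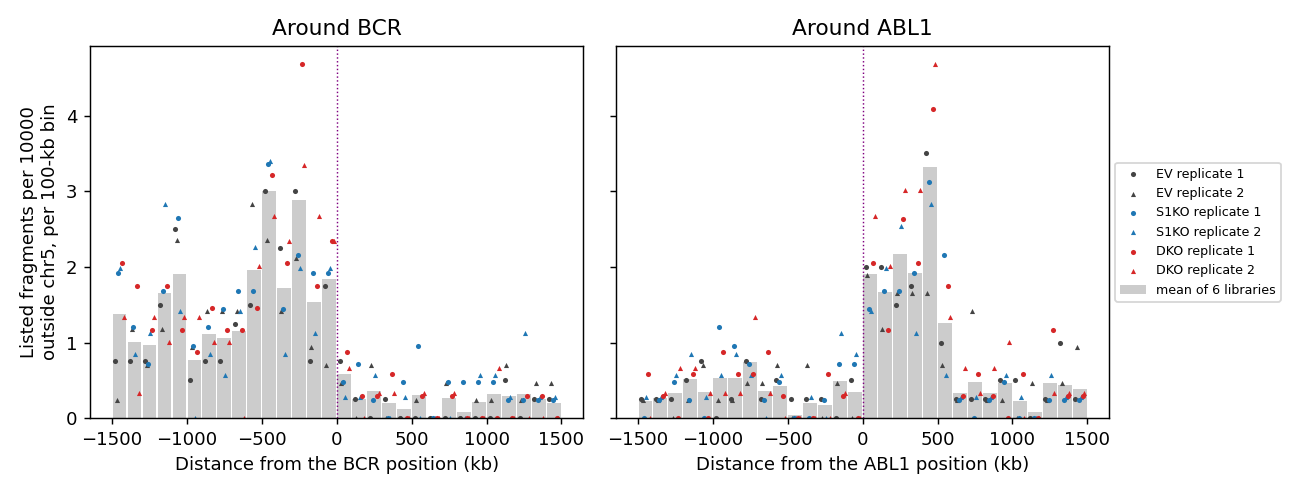
Listed fragments per 10000 listed outside chr5 in bins of 100 kb (y axis) against the distance in kb from the BCR position (left) and the ABL1 position (right). Grey bars are the mean of 6 libraries and points are the single libraries. The high bins end at the BCR position (40 fragments in the last bin, 13 in the next) and begin at the ABL1 position (8 fragments in the last bin below, 42 in the first above).

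Away from ABL1, chr9 was uneven. The next densest windows were chr9:37000001-38000000 with 29 and 25 fragments in EV, 25 and 16 in S1KO, and 29 and 22 in DKO (6.59 per 10000, rank 73), chr9:123000001-124000000 (6.58, rank 76) and chr9:114000001-115000000 (6.06, rank 144). The long arm from 71 Mb to ABL1 had 3.68 ± 0.21 per 10000 per Mb (SD, n = 6), 1.02 times the median window outside chr5. The long arm after the ABL1 block had 2.49 ± 0.37, which was 0.545 to 0.836 times the density before ABL1 in the single libraries. Both sides of the ABL1 block were thus lower than the block. The whole arm after the block was less dense than that from 71 Mb to ABL1 in every library. The 600 kb next to the block did not keep this order. Above it they listed 7 and 11 fragments in EV, 4 and 6 in S1KO, and 6 and 8 in DKO. The 600 kb below it listed 7 and 8, 9 and 10, and 4 and 1.

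The short arm of chr9 held fewer fragments than the long arm. Below 47 Mb the libraries listed 306 and 343 fragments in EV, 321 and 247 in S1KO and 274 and 233 in DKO. Above 71 Mb they listed 993 and 1011, 1108 and 903, and 946 and 817. Per Mb, the short arm stood at 0.46 and 0.506 of the long arm in EV, 0.432 and 0.408 in S1KO and 0.432 and 0.425 in DKO. The mean difference was -1.18 ± 0.11 on the log2 scale (SD, n = 6), lower in 6 of 6 libraries (exact two-sided sign-flip permutation test, p = 0.03125, the smallest possible, and 0.03125 after adjusting over 4 tests). With the short arm below 20 Mb only, which leaves out the gap at CDKN2A and the stretch next to the centromere, the difference was -0.66. Density was 2.35 ± 0.19 per 10000 per Mb below 20 Mb and 3.32 ± 0.51 from 32 Mb to 39 Mb, so the arm was not evenly low.

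At CDKN2A no fragment was listed. From 21 Mb to 23 Mb all 6 libraries had 0 fragments, which allows a share of up to 0.708 to 1.01 per 10000, taking 3 counts as the limit of a count of 0. These limits cover counting error only. The 5 Mb on each side listed 50 and 50 fragments in EV, 61 and 40 in S1KO, and 38 and 49 in DKO. Against that flanking density the stretch was at least 2.53-fold to at least 4.07-fold lower in single libraries, and at least 19.2-fold lower over the 6 libraries together (3 counts over all of them). Most flanking fragments came from the lower side, with 237 of 288, and against the lower side alone the stretch was at least 31.6-fold lower. The planned test of this difference adds 0.5 to each count of 0, and gave the same sign in 6 of 6 libraries (exact two-sided sign-flip permutation test, p = 0.03125, the smallest possible, and 0.03125 after adjusting over 4 tests).

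The empty stretch was not alone on the short arm. The last fragment below it ended at 20753528 and the next began at 24108420, so that chr9:20753529-24108419, 3355 kb, held no listed fragment in any library. Between 24 Mb and 25 Mb only 2 fragments were listed, both in DKO replicate 2, with 1 read and 10 reads. In the other 5 libraries nothing was listed from 20753529 up to 26606547, so the upper end of the first stretch rests on DKO replicate 2 alone. A second empty stretch, chr9:24534039-26606547, was 2073 kb long. Then came a stretch with reads, chr9:26606548-28522181, in which 61 fragments were listed, 12 and 12 in EV, 12 and 12 in S1KO, and 8 and 9 in DKO. After it chr9:28522182-31629247 was empty over 3107 kb. Fragments of chr9:26606548-28522181 were thus listed in all 3 groups, and the 3 empty stretches held none in any of the 6 libraries. Whether HindIII fragments of the empty stretches can be listed in cells that keep them was not tested, since K562 was the only cell line.

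Empty stretches of this size were uncommon. Over all chromosomes outside chr5, 18 stretches of at least 2000 kb between listed fragments held none, 4 of them on chr9 and 0 on chr22. Of those 4, the fourth spans the centromere. In windows of 1 Mb, the empty runs on chr9 were chr9:21000001-24000000, chr9:25000001-26000000, chr9:29000001-31000000 and the centromeric chr9:48000001-65000000. The empty windows of chr22 all lay in its first 16 Mb, the short arm and centromere. The sparsest windows of chr9 with any fragment started at 65000001, 46000001, 24000001, 40000001 and 70000001, with 0.0394, 0.0488, 0.112, 0.127 and 0.137 per 10000. Of these, 4 lie beside the centromere and 1, chr9:24000001-25000000, between the short-arm gaps.

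**Figure D3:**
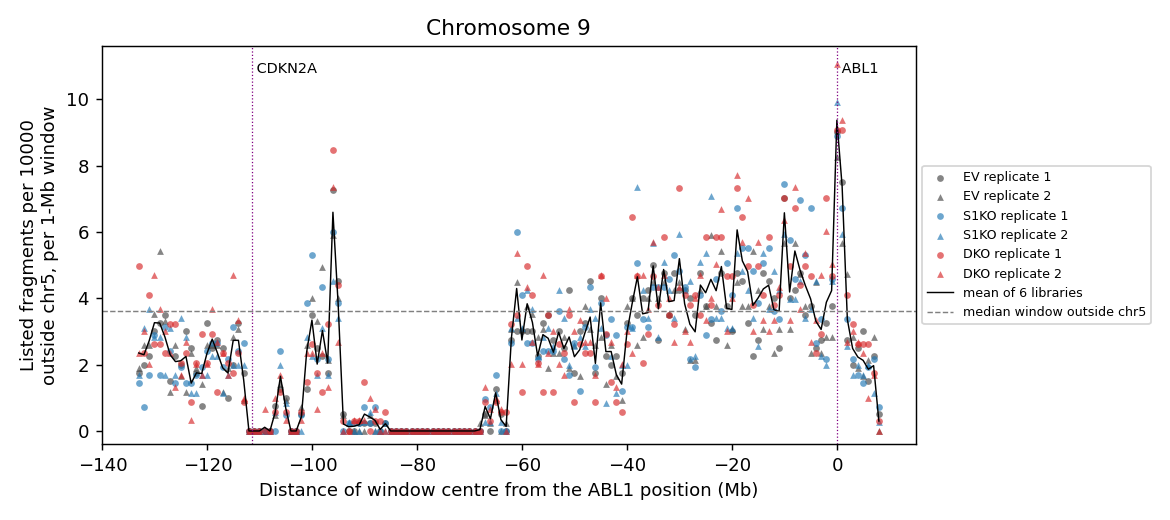
Listed fragments per 10000 listed outside chr5 in each 1-Mb window of chr9 (y axis) against the distance of the window centre from the ABL1 position in Mb (x axis). Points are the 6 libraries, the black line their mean, the dashed line the median tested window outside chr5 (3.61) and the dotted lines the CDKN2A and ABL1 positions. The windows at CDKN2A lie at 0 in all libraries and the ABL1 window reaches 9.37.

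How often the same fragment was listed in several libraries was measured next. For each library, the share of its fragments that another library also listed was averaged over the other 5. In the BCR block this share was 30.1% and 28% in EV, 25.1% and 29.7% in S1KO, and 27.2% and 27.6% in DKO. It was higher in the ABL1 block, with 43.4% and 37.8%, 38% and 38.9%, and 41.3% and 42.4%. On the rest of chr22 it was 5.05% to 6.09%, on the rest of chr9 6.24% to 6.69%, and on other chromosomes outside chr5 7.14% to 7.70%. The 2 blocks stood above these pooled stretches in every library, and the ABL1 block was higher than the BCR block in every library. These shares compare libraries with each other, so the 6 values of a stretch are not independent, and no test was run on them. The shares also depend on how many of a stretch's fragments each library lists, so they are not a readout separate from density. The ABL1 block, the BCR block and the rest of chr22 had the same order in density, with 20.4, 7.38 and 2.24 per 10000 per Mb. The part of density in these shares was not tested.

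**Figure D4:**
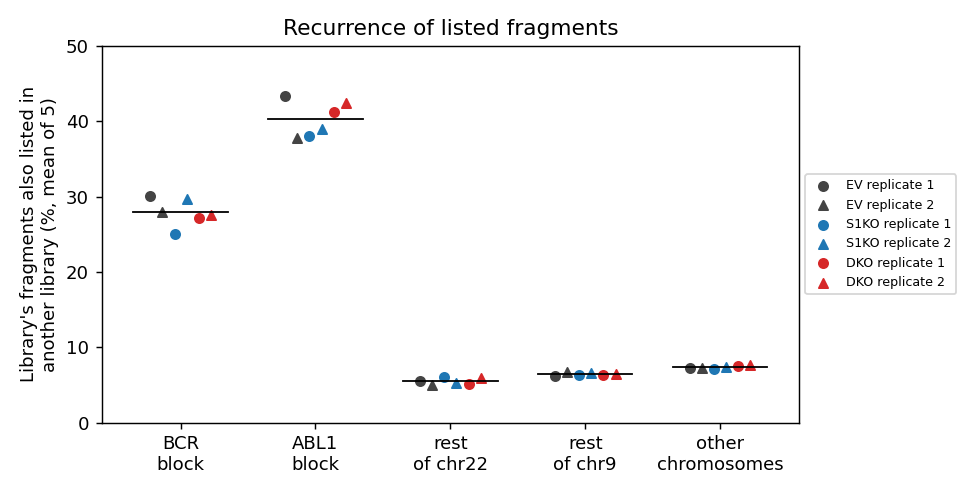
Share of a library's listed fragments that another library also listed, averaged over the other 5 libraries (y axis, %), for 5 stretches of the genome outside chr5. Points are libraries and lines their mean. The BCR block (27.9%) and the ABL1 block (40.3%) lie above the rest of chr22 (5.49%), the rest of chr9 (6.42%) and the other chromosomes (7.37%) in all 6 libraries.

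Among single windows the BCR window came first, above the ABL1 window, unlike the order of the 2 blocks. The BCR window had the highest share of refound fragments of 2649 windows with at least 20 fragments, 41.5%. The ABL1 window ranked 3 with 36.3%, against a median of 6.64%. The window that ranked 2 lay on neither chr9 nor chr22, so high shares were not limited to these chromosomes. The windows chr22:22000001-23000000, chr22:21000001-22000000 and chr22:20000001-21000000 ranked 4, 5 and 6, with 30.8%, 27.1% and 26.9%. The window chr9:134000001-135000000 ranked 7 with 24.9%, and chr22:19000001-20000000 ranked 9 with 20.2%. Windows of chr22 below these were lower, with 7.37% in chr22:18000001-19000000, near the median. The shares were 12% in chr22:17000001-18000000 and 15.1% in chr22:16000001-17000000. Refinding on chr22 thus also peaked at BCR, and not all of the BCR block was high.

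Over the 6 libraries, 679 different fragments were listed in the BCR block and 349 of them, 51.4%, appeared in at least 2 libraries. In the ABL1 block 87 of 106, 82.1%, did so. The shares were 13.3% of 1209 on the rest of chr22, 15.1% of 6248 on the rest of chr9 and 17.2% of 178248 on other chromosomes. Of the chr9 and chr22 fragments listed in 5 or 6 libraries, 12 lay in the BCR block, 6 in the ABL1 block and 1 elsewhere.

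Only 2 fragments of the 2 chromosomes had reads in all 6 libraries, 1 on each side of the fusion. The fragment chr22:23141744-23146446, which lies 456 kb below the BCR position, had 22 and 38 reads in EV, 48 and 47 in S1KO and 30 and 49 in DKO. The fragment chr9:133714743-133716891, which lies 116 kb above the ABL1 position, had 24 and 46, 12 and 61, and 41 and 4 reads. Read counts of the second fragment thus ranged from 4 to 61 between libraries that all listed it. Of the next 8 fragments, each listed in 5 libraries, 5 lie on chr22 between chr22:21961854-21966575 and chr22:23388197-23390702, and 3 on chr9. Those 3 are chr9:133624276-133649670, chr9:133892284-133896395 and chr9:134122472-134125324, all within the ABL1 block. The first of them is 25395 bp long, with 39 and 84, 14 and 0, and 99 and 16 reads. The 10 fragments are single HindIII fragments and are named without genes, since no gene positions on hg19 were used.

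The blocks had more fragments, and no difference in reads per fragment passed after adjustment. In the BCR block a listed fragment had a median of 9 and 37.5 reads in EV, 19 and 24 in S1KO and 33 and 21 in DKO. On the rest of chr22 the medians were 9 and 35, 15 and 20, and 32 and 23. The difference was 0.10 ± 0.17 on the log2 scale (SD, n = 6), positive in 4 of 6 libraries (exact two-sided sign-flip permutation test, p = 0.25, and 0.25 after adjusting over the 5 added tests). In the ABL1 block the medians were 12 and 36, 20.5 and 18, and 41 and 24, against 9 and 34, 18 and 22, and 33 and 20 on the rest of chr9. That difference was 0.16 ± 0.25, positive in 5 of 6 libraries (exact two-sided sign-flip permutation test, p = 0.1875, adjusted 0.234). Mean reads capped at each library's 90th percentile differed by 0.18 ± 0.11 in the ABL1 block, higher in 6 of 6 libraries (exact two-sided sign-flip permutation test, p = 0.03125, adjusted 0.0781), and by 0.10 ± 0.11 in the BCR block (exact, p = 0.125, adjusted 0.208). None of these 4 differences passed the threshold of 0.05 after adjustment. With 6 libraries p cannot go below 0.03125, and a single difference at that limit could not pass after adjusting over 5 tests. The lack of a pass therefore does not show that reads per fragment were equal.

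Fragments in the blocks were longer. The median length of a listed fragment was 3583 bp in the BCR block and 3487 bp in the ABL1 block, against 2860 bp on the rest of chr22, 2483 bp on the rest of chr9 and 2312 bp on other chromosomes. Fragments under 1 kb made up 19.3% and 17.0% in the blocks and 20.5%, 24.3% and 25.3% in the other 3 stretches. The part of fragment length in the shares above was not tested.

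The authors' deposited tables give a q-value for each fragment within a library. At q under 0.05 they held 0 and 6 fragments of chr9 and chr22 in EV, 3 and 5 in S1KO and 0 and 0 in DKO, where 0.123%, 0.234%, 0.0529%, 0.113%, 0.00585% and 0% of all listed fragments outside chr5 passed, in the same order of libraries. In the 3 libraries with any such fragment on these chromosomes, 3 of 6, 3 of 3 and 2 of 5 lay in the 2 blocks. These were EV replicate 2 and both S1KO libraries. They listed 230, 251 and 186 fragments in the BCR block and 37, 50 and 37 in the ABL1 block. On chr9 and chr22 together they listed 1887, 1951 and 1574 fragments. The lowest q on chr9 and chr22 in the authors' deposited tables was 9.83e-18 for chr9:134041854-134043882 in the ABL1 block, with 311 reads in S1KO replicate 2. No fragment was called in more than 1 library, and neither of the 2 fragments listed in all 6 libraries was called. The q-values follow the reads of single fragments, whereas the block densities above count fragments. Whether calls fell in the blocks more often than listed fragments do was not tested.

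The comparison of groups asks whether removing the silencers changed the shares of these chromosomes among the contacts of FGF18. The 3 comparisons share libraries, since each group enters 2 of them. Chromosome 9 held 3.28% and 3.22% of listed fragments in EV, 3.47% and 3.28% in S1KO, and 3.61% and 3.55% in DKO. Chromosome 22 held 1.06% and 1.23%, 1.22% and 1.18%, and 1.27% and 1.11%. With 2 libraries against 2 an exact two-sided permutation test cannot go below p = 0.333, and no share or step reached an adjusted p below 0.688 over 33 comparisons. The DKO libraries lay above the EV and S1KO libraries for chr9, and the groups overlapped for chr22 in the comparisons of DKO with each of the others and of S1KO with EV.

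Within the windows, fragment numbers were tested with edgeR's quasi-likelihood test over all 2649 windows outside chr5, 135 of them on chr9 and chr22. In S1KO against EV, 0 of the 135 windows passed an adjusted p of 0.05, where 0% of all windows did. At an unadjusted p under 0.05 there were 6 (5 higher, 1 lower), a share of 4.44% against 6.12% of all windows, and DESeq2 called 0. In DKO against EV, 0 of 135 passed, again with 0% of all windows. At an unadjusted p under 0.05 there were 12 (8 higher, 4 lower), 8.89% against 6.72% of all, and DESeq2 called 0. In DKO against S1KO, 1 of 135 passed, where 0.113% of all windows did, and 11 had an unadjusted p under 0.05 (5.96% of all windows). The median log2 fold change of the 135 windows was 0.06, 0.08 and 0.02 in the 3 comparisons, beside 0.0099, -0.010 and -0.0070 over all windows.

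The 1 window past the threshold was chr9:131000001-132000000, which lies 2 windows below ABL1. It listed 13 and 12 fragments in EV, 9 and 7 in S1KO and 24 and 18 in DKO. The DKO libraries were above all others and the S1KO libraries below all others. The log2 fold change of DKO over S1KO was 1.64 (SE 0.39, edgeR adjusted p = 0.0277), and of DKO over EV 1.10 (SE 0.35, edgeR adjusted p = 0.45). The call was lost with DESeq2 (adjusted p = 0.999), in the 4 compared libraries fitted alone by edgeR (adjusted p = 0.0913), and whenever 1 of those 4 libraries was left out. Without S1KO replicate 1, S1KO replicate 2, DKO replicate 1 or DKO replicate 2 the edgeR adjusted p was 0.663, 0.795, 0.451 and 0.124, while the log2 fold change stayed between 1.52 and 1.74.

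Other windows with the lowest p did not pass. In S1KO against EV these were chr9:95000001-96000000 which listed 14 and 11 fragments in EV but 21 and 26 in the S1KO libraries (log2 1.00, SE 0.34, edgeR adjusted p = 0.621), chr22:24000001-25000000 (log2 1.08, SE 0.45) and chr9:4000001-5000000 with 13 and 23 against 7 and 10 (log2 -0.97, SE 0.41). The last 2 had an edgeR adjusted p of 0.713. Single libraries moved these values: leaving out 1 library gave 0.73 to 1.27, 0.48 (without EV replicate 1) to 2.23 (without EV replicate 2), and -1.36 (without S1KO replicate 2) to -0.55 (without EV replicate 2). In DKO against EV, besides chr9:131000001-132000000 described above, they included chr22:16000001-17000000, which listed 2 and 3 fragments in EV but 7 and 9 in the DKO libraries (log2 1.98, SE 0.63, edgeR adjusted p = 0.475). The other was chr9:10000001-11000000 with 10 and 10 against 3 and 1 (log2 -1.90, SE 0.65, edgeR adjusted p = 0.503). Leaving out 1 library gave 1.70 to 2.25 and -2.74 (without DKO replicate 1) to -1.44 (without DKO replicate 2). The windows of BCR and ABL1 themselves did not pass in any comparison. The BCR window had log2 fold changes of 0.10 (SE 0.21) for S1KO over EV, 0.46 (SE 0.21) for DKO over EV and 0.36 (SE 0.21) for DKO over S1KO, with edgeR adjusted p of 0.996, 0.689 and 0.837. The ABL1 window had 0.12 (SE 0.24), 0.21 (SE 0.25) and 0.09 (SE 0.25), with edgeR adjusted p of 0.996, 0.96 and 0.964.

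Windows whose 2 groups did not overlap were counted as a description. For S1KO against EV, 24 of the 135 windows were higher and 24 lower in both S1KO libraries (17.8% each), beside 16.1% and 17.7% of all windows. For DKO against EV, 35 were higher and 23 lower (25.9% and 17.0%), beside 17.7% and 18.6% of all windows. For DKO against S1KO, 27 were higher and 26 lower (20% and 19.3%), beside 18.1% and 18.9%. The share of windows higher in DKO than in EV was above the background and the other 5 were near it.

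Reads per window gave no call on these chromosomes with edgeR. Of 152 windows tested for reads, 0 passed in each comparison, where 0% of all 2689 windows did, and 3, 11 and 7 had an unadjusted p under 0.05 in S1KO against EV, DKO against EV and DKO against S1KO (4.05%, 5.24% and 5.91% of all). DESeq2 called 0, 1 and 3 of them, where it called 0%, 0.186% and 0.781% of all 2689 windows. For DKO against S1KO the lowest p belonged to chr22:27000001-28000000, with 55 and 45 reads in the S1KO libraries, 374 and 379 in the DKO libraries, and 86 and 281 in those of EV (log2 2.91, SE 0.77, edgeR adjusted p = 0.27). The window chr9:131000001-132000000 was second, with 157 and 197 reads in the S1KO libraries, 1005 and 376 in the DKO libraries, and 136 and 564 in those of EV (log2 1.81, SE 0.54, edgeR adjusted p = 0.347). The window chr9:102000001-103000000 was lower in both DKO libraries, with 270 and 105 reads against 493 and 503 in the S1KO libraries (log2 -1.55, SE 0.52, edgeR adjusted p = 0.605). DESeq2 called these 3 windows, with adjusted p of 5.83e-05, 0.00747 and 0.0219.

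For DKO against EV the lowest p in reads belonged to chr22:16000001-17000000, which had 21 and 92 reads in EV but 151 and 438 in the DKO libraries (log2 2.83, SE 0.85, edgeR adjusted p = 0.79). DESeq2 called this window (adjusted p = 0.042). Its edgeR log2 fold change was 1.34 without DKO replicate 2 and 3.54 without DKO replicate 1. The windows chr9:102000001-103000000 (log2 -1.47, SE 0.52) and chr9:85000001-86000000 (log2 -1.66, SE 0.64) followed, with edgeR adjusted p of 0.925 and 0.929. For S1KO against EV the windows were chr22:27000001-28000000 (log2 -1.67, SE 0.74), chr9:128000001-129000000 (log2 1.13, SE 0.52) and chr9:95000001-96000000 (log2 1.01, SE 0.47), each with an edgeR adjusted p of 0.997. The second of these was 0.35 without S1KO replicate 1 and 1.64 without S1KO replicate 2. In simulated data for DKO against EV, 100 windows were raised 2-fold and 100 others 4-fold in DKO. The fragment test over 2649 windows recovered 52% of 2-fold and 100% of 4-fold changes, with 10 false calls. The read test over 2689 windows recovered 0% of 2-fold and 49% of 4-fold changes, with 3 false calls. Read changes of 2-fold were thus not detectable. The fragment simulation gave every window the same dispersion of 9.77e-05, and no window was lowered. Recovery in sparse windows was not counted apart, so the 100% cannot be carried over to each of them. In the data, chr22:16000001-17000000 had a log2 of 1.98 in fragments for DKO over EV and an edgeR adjusted p of 0.475. Recovery where only a few windows change, which faces a stricter adjusted threshold, was not simulated.

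The ABL1 block took the largest share in the DKO libraries. It held 11.8 and 8.74 per 10000 in EV, 12 and 10.5 in S1KO, and 13.8 and 16.8 in DKO. Both DKO libraries were above the other 4, a ratio of means of 1.42 (exact two-sided permutation test of 2 against 4 libraries, p = 0.0667, the smallest this design allows, and 0.267 after adjusting over 8 values). As a share of reads the order was the same, with 13.8 and 9.28 per 10000 in EV, 14.5 and 12.7 in S1KO and 17.8 and 19.6 in DKO. The share of fragments on chr9 was also non-overlapping, 3.58% ± 0.04 in DKO (SD, n = 2) and 3.31% ± 0.11 in the other 4 (SD, n = 4), a ratio of 1.08 with the same exact p of 0.0667 and adjusted p of 0.267. This grouping of EV with S1KO was chosen after the values were seen. The DKO libraries also listed the fewest fragments outside chr5 and had the largest shares of chr5 reads, and the part of both in these differences was not tested.

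The BCR block took a larger share in both DKO libraries than in both EV libraries, and S1KO overlapped both. It held 49.1 and 54.3 per 10000 in EV, 60.4 and 52.7 in S1KO and 63.5 and 56.6 in DKO (exact permutation test of DKO against the other 4, p = 0.267, adjusted 0.427). Its ratio to the rest of the long arm of chr22, in fragments, was 0.867 and 0.785 in EV, 0.98 and 0.805 in S1KO, and 1.00 and 1.05 in DKO. The DKO ratios were the highest by fragments (exact p = 0.133, adjusted 0.267) but not by reads, where S1KO replicate 1 had the highest ratio, 1.18. The short arm of chr9 held 76.6 and 81.0 per 10000 in EV, 77.2 and 69.9 in S1KO and 80.2 and 78.1 in DKO, and the groups overlapped for DKO against EV and S1KO against EV. Its difference from the long arm was -1.05 on the log2 scale in EV, -1.25 in S1KO and -1.22 in DKO.

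The steps at BCR and ABL1 were present in each group. The mean log2 step at BCR was 3.25 for the EV libraries, 2.45 for S1KO and 3.08 for DKO. At ABL1 it was 1.92 for the EV libraries, 1.30 for S1KO and 2.36 for DKO. At both positions the 2 S1KO libraries were below the libraries of the other groups, with an exact p of 0.333, the smallest 2 against 2 libraries allow, and 0.688 after adjustment. This order depended on the setting. By reads, S1KO minus EV at BCR was -0.40 (exact p = 1) in place of -0.80, and with 3 Mb on each side DKO minus S1KO at ABL1 was 0.035 (exact p = 1) in place of 1.06. In S1KO replicate 1 the smaller step at BCR came with 18 fragments in the 1 Mb above BCR, against 5 to 9 in the other libraries. No fragment was listed from 21 Mb to 23 Mb of chr9 in any group.

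**Figure D5:**
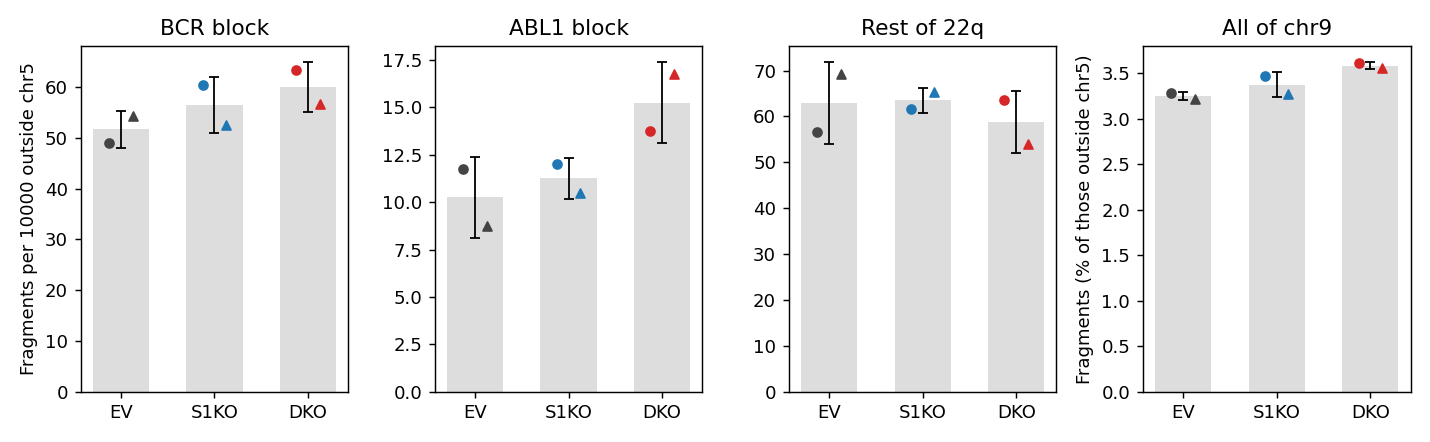
Listed fragments per 10000 listed outside chr5 in the BCR block, the ABL1 block and the rest of the long arm of chr22, and the share on all of chr9 in % (y axes), by group. Bars are means of 2 libraries with SD, and points are the libraries. The DKO libraries lie above the others for the ABL1 block (13.8 and 16.8) and chr9 (3.61% and 3.55%), and the groups overlap for the rest of 22q.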

How the data were processed

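The data are 6 deposited tables, 1 for each 4C-seq library, of HindIII fragments with 1 read or more. The values used are the deposited raw read counts of each fragment, named so per the file headers. A deposited score headed RPMs was not used, because it exceeds the sum that its heading implies. The authors also deposited a p-value and a q-value of every fragment, used as given. The aligner was Bowtie2 2.2.5 and the build hg19, per the submitters' processing notes, and the program that called interactions is not given in the sources used here. Libraries held 708503 to 1919737 reads.

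Groups came from the sample titles. Fragments were assigned by their midpoint to 1-Mb windows and unlisted fragments were counted as 0. Fragment numbers (windows with at least 20 over the 6 libraries) and reads (at least 10 in 2 libraries) went into the quasi-likelihood test of edgeR 4.0.16 (R 4.3.3), with 6 libraries in 1 fit, the totals outside chr5 as library sizes and Benjamini-Hochberg adjustment over all windows. DESeq2 1.42.0 was an alternative. Single values were compared by exact permutation tests in Python 3.11.15 with numpy 2.4.6 and pandas 2.3.3, and figures were drawn with matplotlib 3.10.9. The window tests were tested on simulated data. The windows named are those at BCR, ABL1 and CDKN2A with their neighbours, the 5 densest and 5 sparsest of each chromosome, and in each comparison those past an adjusted p of 0.05 or the 3 with the lowest p. The fragments named are the 10 listed in most libraries. The members and lists were chosen with earlier results of these data known.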

Additional observations from a re-analysis of the deposited data

How the results depend on the processing

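The steps at BCR and ABL1, the gap at CDKN2A and the difference between the arms of chr9 kept their sign and p of 0.03125 (exact sign-flip permutation test, n = 6) with reads, with fragments of at least 5 reads and with other widths. This p is the smallest possible and shows only that the 6 signs agreed. At CDKN2A the sign could not change, since a stretch with no listed fragment has no reads, nor has a narrower part of it. Its log2 value, set by the 0.5 added, was -4.25 and became -9.07 with reads, -4.04 with at least 5 reads and -3.21 with other widths. Leaving out 1 library, p cannot go below 0.0625 (exact), and the log2 values ranged from 2.79 to 3.11 at BCR, 1.66 to 1.97 at ABL1, -4.31 to -4.17 at CDKN2A (with 0.5 added) and -1.21 to -1.15 between the arms.

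Differences between groups were less stable. DKO minus EV turned sign at BCR with reads (0.21) and wider flanks (0.31), and at ABL1 with reads (-0.18) and wider flanks (-0.19). DKO minus S1KO between the arms of chr9 turned to -0.0061 with at least 5 reads. For the share of fragments on chr22, DKO minus S1KO turned to 0.029 percentage points with reads and 0.023 with at least 5 reads. Leaving out 1 library, the chr22 difference ranged from -0.035 to 0.143 for S1KO minus EV, from -0.047 to 0.131 for DKO minus EV and from -0.094 to 0.0698 for DKO minus S1KO. The BCR block difference of DKO minus S1KO ranged from -0.307 (without S1KO replicate 2) to 7.39 per 10000, and the ABL1 block difference of S1KO minus EV from -0.521 (without EV replicate 2) to 2.51. The cause of these changes was not tested.

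The single window called in DKO against S1KO became 0 windows with DESeq2 and with the 4 libraries alone. With any 1 of those 4 left out, which leaves 1 library in a group, its log2 fold change was 1.52 to 1.74. For reads, DESeq2 gave 1 window in DKO against EV and 3 in DKO against S1KO, and leaving out a library gave 0 to 1 in each, the 1 without DKO replicate 1. The labels do not state whether replicate numbers pair the libraries. Deviations of same-numbered libraries correlated at -0.017 to -0.0041 over 2649 windows, which cannot decide this, since windows hold few fragments. With the replicate number as a block the counts were 0, 0 and 1 for fragments and 0, 0 and 0 for reads, as without it. The fragment windows of 1 Mb hold few fragments, with medians of 9 to 13 per library on chr9 and 6 to 11 on chr22, which limits what a comparison of 2 libraries with 2 can show.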

Other observations

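Among the 20 densest windows outside chr5, 4 lay on chr9 and chr22. Others lay on chr13, where chr13:91000001-92000000 ranked 2 with 13.9 ± 1.82 per 10000 (SD, n = 6), and chr13:93000001-94000000 and chr13:90000001-91000000 ranked 6 and 14 with 9.33 and 8.16. Several lay on the long arm of chr7, led by chr7:106000001-107000000 with 9.35 per 10000 (rank 5). The same fragments were refound between libraries in 21.6%, 18.7% and 18.4% of cases in these chr13 windows, which ranked 8, 13 and 14 of 2649 windows. In chr7:106000001-107000000 the share was 12.9%, against 41.5% in the BCR window. As means over 1 Mb, the ABL1 window and this chr7 window had nearly the same fragment density (9.37 and 9.35 per 10000). Their shares of refound fragments were 36.3% and 12.9%, a difference described here without a test. The fragments of the ABL1 window were not evenly spread, since the ABL1 block, which begins inside it, held 20.4 per 10000 per Mb. The 2 windows were not compared at a finer width.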
